A study of Mus musculus with 2 samples.

Results

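The genes described here are 8 cathepsins (Ctsl, Ctss, Ctsb, Ctsz, Ctsc, Ctsh, Ctsd and Ctse), Lgmn, which encodes the protease legumain, and Cst3, which encodes the protease inhibitor cystatin C. They were chosen by symbol, and all 10 were found among the 27998 genes of both count matrices. The study sorted liver leukocytes of C57BL/6 mice, 7 to 10 weeks old, with 2 different gates and made 1 droplet single-cell library per gate. The LSM gate took CD45+Lin-Sca-1+Mac-1+ cells and the CD122+CD49a+ gate took CD45+Lin-CD122+CD49a+ cells, where Lin- means without the surface proteins of a lineage panel. The labels name no treatment and no altered allele in either group, and the number of mice behind each library was not found in those labels. Since each gate gave 1 library, differences have no check by replicates and are reported without p-values. Ranges in parentheses are exact 95% intervals, which cover only counting error.

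Cathepsins are proteases of endosomes and lysosomes that break down proteins taken up by a cell, and in antigen-presenting cells they also cut the invariant chain (Cd74) away from MHC class II molecules before a peptide is loaded. Cathepsin S does the last of these cuts in dendritic cells and B cells, while cathepsin L does it in cortical epithelial cells of the mouse thymus. Cystatin C binds cysteine cathepsins and blocks them, and its gene is a well known transcript of mouse dendritic cells.

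The start regions of 3 members are shown because these genes were highest in different classes of the LSM library: Ctsl in plasmacytoid dendritic-like cells, Ctss in macrophage-like cells and Ctsd in basophil-like cells. Each sequence holds 250 bases before and 50 after a RefSeq transcription start on GRCm38.p6, written 5′ to 3′ on the gene's own strand. Capitals mark CACGTG, a palindrome that is the core of the site bound by lysosomal gene regulators such as TFEB, and GGAAGT, an ETS family core read on either strand (ACTTCC on the other), with no overlap between them here.
Ctsl: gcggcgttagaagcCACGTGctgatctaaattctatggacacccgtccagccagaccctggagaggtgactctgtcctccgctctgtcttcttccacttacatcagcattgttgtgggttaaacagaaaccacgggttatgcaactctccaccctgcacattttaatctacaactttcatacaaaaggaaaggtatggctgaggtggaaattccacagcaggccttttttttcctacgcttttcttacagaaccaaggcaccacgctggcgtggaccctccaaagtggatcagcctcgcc
Ctss: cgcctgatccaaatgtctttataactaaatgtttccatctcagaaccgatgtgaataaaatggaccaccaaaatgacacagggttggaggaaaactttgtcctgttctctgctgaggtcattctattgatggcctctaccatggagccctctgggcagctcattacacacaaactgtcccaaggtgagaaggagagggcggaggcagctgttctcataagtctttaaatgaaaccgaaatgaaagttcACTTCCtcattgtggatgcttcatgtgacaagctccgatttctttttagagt
Ctsd: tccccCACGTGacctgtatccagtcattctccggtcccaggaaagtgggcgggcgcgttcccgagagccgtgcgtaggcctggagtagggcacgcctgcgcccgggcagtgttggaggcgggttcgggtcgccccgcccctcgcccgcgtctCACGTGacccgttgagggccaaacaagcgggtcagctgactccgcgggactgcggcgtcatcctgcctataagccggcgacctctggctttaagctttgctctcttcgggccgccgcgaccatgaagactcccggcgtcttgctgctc
The Ctsl region lies on chromosome 13 at chr13:64370471-64370770 on the minus strand, inside the GENCODE gene, whose 5′ end is at 64370890. The Ctss region lies at chr3:95526536-95526835 on the plus strand, and the Ctsd region at chr7:142387778-142388077 on the minus strand. Ctsl held 1 CACGTG, Ctsd held 2 and Ctss held none. Ctss held 1 GGAAGT and the other members shown held none. Across all 32851 RefSeq start regions of this length, 7.15% held CACGTG and 23.8% held GGAAGT. Of the 10 members, 7 had an entry, 3 of them with CACGTG (Ctsl, Ctsd and one of the Lgmn starts) and 2 with GGAAGT (Ctss and Ctsc).

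The matrices list each gene by Ensembl identifier, and GENCODE M21 for GRCm38 places all 10 as protein-coding genes. Ctsl (ENSMUSG00000021477) spans chr13:64359337-64370890 and Ctss (ENSMUSG00000038642) spans chr3:95526786-95556403. Ctsb lies on chromosome 14, Ctsz and Cst3 on chromosome 2, Ctsc and Ctsd on chromosome 7, Ctsh on chromosome 9, Ctse on chromosome 1 and Lgmn on chromosome 12. Ctsb overlaps Fdft1, Ctsz overlaps Nelfcd and Ctsc overlaps Gm26522, each on the opposite strand, and no source used here says whether the counting was stranded.

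Cell barcodes with at least 500 detected genes were kept, 3074 in the LSM library (median 5100.5 UMIs) and 1257 in the CD122+CD49a+ library (median 1461 UMIs), and 2 of the kept barcodes occur in both. The 10 members were left out of all marker lists. A cell joined a class when at least 2 different genes of that class's marker list had a UMI and that number was at least 2 times that of the next list. This placed 67.1% of LSM cells and 79.2% of CD122+CD49a+ cells. The LSM classes over 20 cells were cDC1-like (223), mature DC-like (160), plasmacytoid-like (322), nonclassical monocyte-like (336), basophil-like (123), progenitor-like (279), cDC2-like (415), macrophage-like (43), lymphocyte-like (80) and plasma cell-like (73). The CD122+CD49a+ classes were cDC1-like (116), nonclassical monocyte-like (44), cDC2-like (81) and lymphocyte-like (723).

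The class names were checked with genes that did not set them. These check genes were also chosen with earlier results of these data known, so the check is not independent. All 6 check genes were at least 2-fold above the remaining cells of the library in the cDC1, mature DC, nonclassical monocyte, basophil, macrophage and lymphocyte classes, 5 of 6 were in the progenitor class, and all 4 in the plasma cell class. In the plasmacytoid class 4 of 6 were, namely Tcf4, Bst2, Runx2 and Spib. The cDC2 class was the weakest: only Irf4 was raised in the LSM library, and Sirpa, Irf4 and Itgax in the CD122+CD49a+ library. The name of that class therefore rests on the markers that set it. Depth differed between classes, with a median of 8005 UMIs in LSM cDC1-like cells, 4410 in plasmacytoid-like cells, 1891 in basophil-like cells and 5838 in cDC2-like cells. Levels are therefore given as CPM, the UMIs of a gene summed over a class per 1000000 UMIs of that class, and shares of cells are given after each cell was thinned to 1500 UMIs. In these sums, fewer cells with the transcript and less transcript per cell cannot be told apart.

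**Figure D1:**
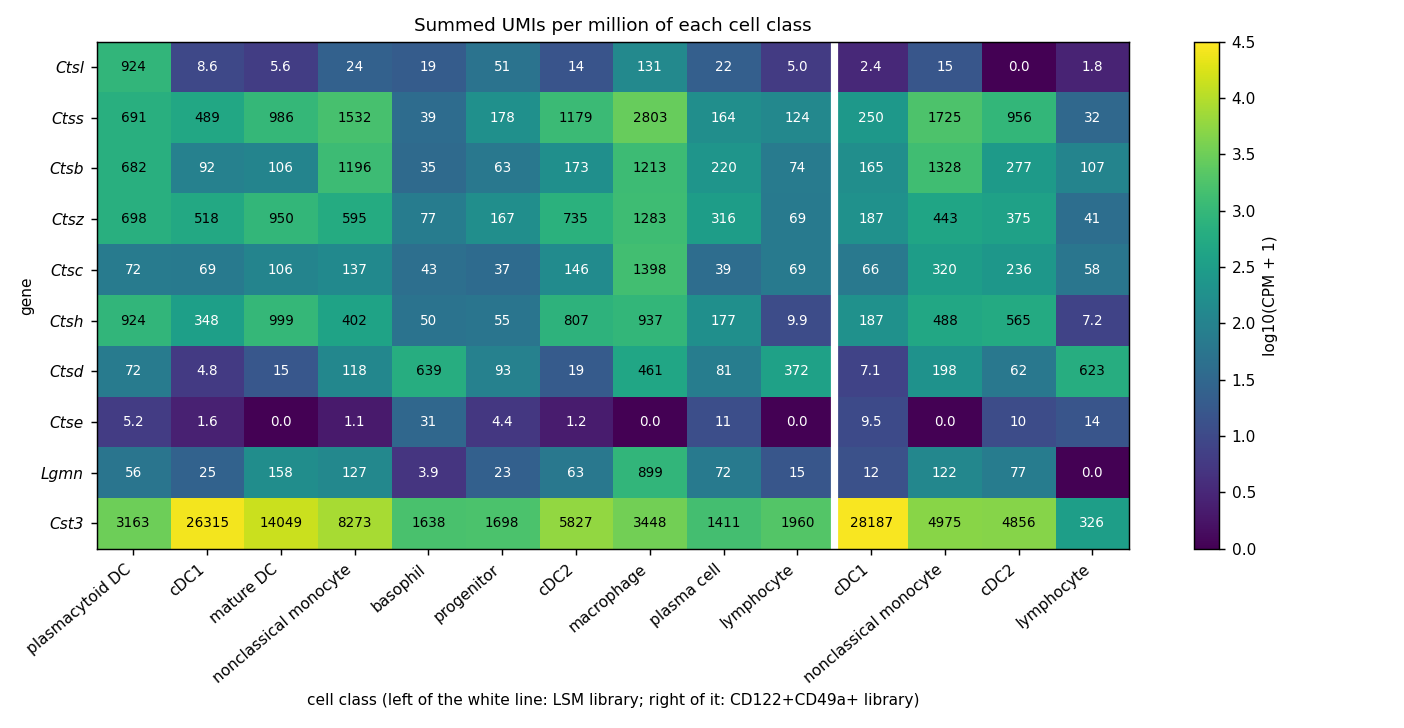
Summed UMI level (CPM) of the 10 genes in each cell class, with the value printed in each tile and the colour on a log10(CPM + 1) scale; LSM classes stand left of the white line and CD122+CD49a+ classes right of it, and rows are to be read across classes, not against each other. Ctsl reached 924 CPM in the plasmacytoid class and 131 CPM or less in every other class.

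Ctsl, the cathepsin L gene, was concentrated in 1 class. It stood at 924 CPM (876 to 973) in LSM plasmacytoid-like cells. The next classes were macrophage-like cells with 131 CPM (76.1 to 209) and progenitor-like cells with 50.6 CPM (40.1 to 63.0), and none of these 3 intervals overlapped the next. The 7 remaining LSM classes lay between 4.96 CPM in lymphocyte-like cells and 23.9 CPM in nonclassical monocyte-like cells, and each overlapped its neighbour in that order. Plasmacytoid-like cells held 9.52% of all UMIs of the kept LSM cells and 77.6% of the Ctsl UMIs (1424 of 1835). Another 9.75% lay in the 549 cells of no class that had a plasmacytoid marker. Those cells held a larger share of every other member, from 12.8% of the Ctsb UMIs to 20.8% of the Ctse UMIs.

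At 1500 UMIs, 49.4% of 320 plasmacytoid-like cells had a Ctsl UMI (43.8 to 55.0), against 3.14% of 223 cDC1-like cells and 1.94% of 412 cDC2-like cells. Of 67 lymphocyte-like cells 1 had a Ctsl UMI, a share of 1.49% (0.0378 to 8.04). That interval holds the cDC1-like and cDC2-like shares, and the part of free RNA in any of them was not tested. Without thinning the shares of these classes, in the same order, were 59.9%, 6.73%, 6.51% and 1.25%. The ratio to cDC2-like cells was 67.3 (48.0 to 97.6), and the ratio to cDC1-like cells was 107 (65.9 to 188). Median mitochondrial shares were 2.16% in plasmacytoid-like cells, 1.09% in cDC1-like cells and 1.08% in cDC2-like cells, and the part of this difference in the result was not tested. All 8 plasmacytoid markers were detected in that class, at 3455 CPM in sum, against 77.9 CPM in the cDC1 class and 79.5 CPM in the cDC2 class. Macrophage markers summed to 1.30 CPM in plasmacytoid-like cells, with 6 of 8 at 0. The classical monocyte list, which holds Ly6c2, summed to 638 CPM in plasmacytoid-like cells with F13a1, Chil3 and Vcan at 0, and to 33.3 CPM in cDC1-like and 52.8 CPM in cDC2-like cells. The part of these lists in the result was not tested.

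Ctss, the cathepsin S gene, had a broad pattern across the same cells. Its order in the LSM library was macrophage-like (2803 CPM), nonclassical monocyte-like (1532), cDC2-like (1179), mature DC-like (986), plasmacytoid-like (691), cDC1-like (489), progenitor-like (178), plasma cell-like (164), lymphocyte-like (124) and basophil-like cells (38.7 CPM). Of the neighbours in that order, only progenitor- and plasma cell-like cells and plasma cell- and lymphocyte-like cells had overlapping intervals. The lowest class, basophil-like cells, held only 10 Ctss UMIs, in 5 cells. In the CD122+CD49a+ library the order was nonclassical monocyte-like (1725 CPM), cDC2-like (956), cDC1-like (250) and lymphocyte-like cells (32.4 CPM), with no overlap between neighbours.

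The Ctsl share of the Ctsl and Ctss UMIs, summed over each class, separated plasmacytoid-like cells from the other dendritic classes. It was 57.2% (55.2 to 59.2, of 2489 UMIs) in plasmacytoid-like cells. It was 1.73% in cDC1-like cells, 0.563% in mature DC-like cells, 1.54% in nonclassical monocyte-like cells and 1.15% in cDC2-like cells. The share was 22.1% (17.9 to 26.7) in progenitor-like cells, 11.8% (5.79 to 20.6) in plasma cell-like cells and 4.45% (2.61 to 7.03) in macrophage-like cells. In basophil-like cells it rested on 15 UMIs and ran from 11.8% to 61.6%. Averaged over plasmacytoid-like cells rather than over UMIs, the share was 41.2%. It was not even within that class. The 101 plasmacytoid-like cells with exactly 2 class markers had 23 Ctsl and 319 Ctss UMIs. The 130 with 5 or more markers had 1182 Ctsl and 489 Ctss UMIs. The CD122+CD49a+ library held 11 plasmacytoid-like cells, too few for a class, with 14 Ctsl and 10 Ctss UMIs, a share of 58.3% (36.6 to 77.9). The share in that library was 0.935% in cDC1-like and 0.877% in nonclassical monocyte-like cells, and none of 186 UMIs in cDC2-like cells was Ctsl. A count of 0 allows a share of up to 1.61% when set to 3 counts, and the exact interval reaches 1.96%.

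**Figure D2:**
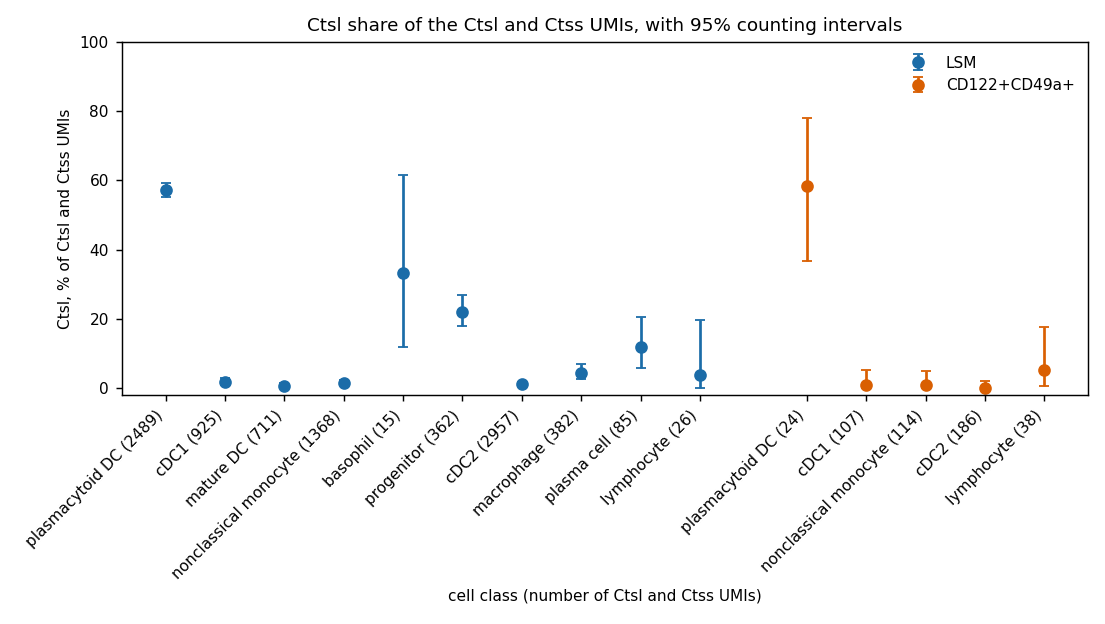
Ctsl UMIs as a percentage of the Ctsl and Ctss UMIs of each class, with exact 95% binomial intervals; the number of UMIs behind each value stands beside the class name, LSM in blue and CD122+CD49a+ in orange. The plasmacytoid values of 57.2% (LSM) and 58.3% (CD122+CD49a+, 24 UMIs) stand above every class other than basophil-like cells, whose interval reaches 61.6%.

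Plasmacytoid-like cells often carried both transcripts. At 1500 UMIs, 34.7% of 320 cells had a UMI of both genes, 14.7% had only Ctsl, 21.6% had only Ctss and 29.1% had neither. A Ctsl UMI was present in 61.7% of the 180 cells with Ctss and in 33.6% of the 140 cells without it. As a description, 29.1% of cells had 3 or more Ctsl UMIs at this depth and 50.6% had none. In cDC2-like cells 81.3% had only Ctss, 1.70% had both and 0.243% had only Ctsl. In progenitor-like cells 24.4% had only Ctss, 6.45% had only Ctsl and 0.717% had both.

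**Figure D3:**
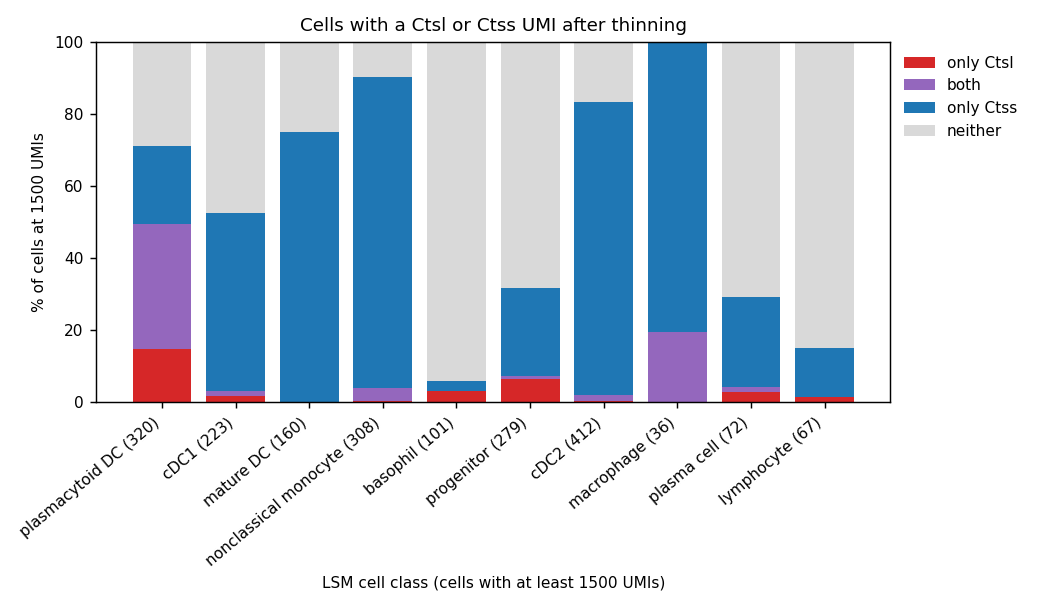
Share of LSM cells of each class with a UMI of only Ctsl, of both genes, of only Ctss or of neither after thinning to 1500 UMIs; the number of cells is given beside each class. In the plasmacytoid bar 34.7% of cells hold both transcripts, and in every other class except macrophage-like cells (19.4%) at most 3.57% do.

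The plasmacytoid class was not uniform in the number of its markers or in the members' levels. Of its 322 cells, 101 had exactly 2 of the 8 markers, 42 had 3, 49 had 4 and 130 had 5 or more. Ctsl stood at 45.6, 179, 728 and 2051 CPM in these groups, and no interval overlapped that of the next group. Ctsb, the cathepsin B gene, stood at 254, 268, 732 and 1188 CPM, and Ctsh, the cathepsin H gene, at 511, 358, 982 and 1468 CPM. Ctss varied less, at 632, 433, 664 and 848 CPM. Ctsd stayed between 59.5 and 80.5 CPM with overlapping intervals. Cst3 ran the other way at its lower end, with 4912 CPM in cells with 2 markers and 2133, 1939 and 2538 CPM in those with more. Median depth ran in the opposite order to Ctsl, at 5010, 4621, 4393 and 4151 UMIs per cell. Cells with 2 markers had Cd7, Ly6c2, Runx2 and Tcf4 among their leading genes, and those with 5 or more had Klk1, Siglech and Cox6a2. The cDC2 list summed to 229.9, 84.7, 366 and 519 CPM along the same order, and the part of depth and of these genes in the result was not tested. The plasmacytoid list, whose genes set these groups, summed to 698, 1502, 3416 and 6605 CPM. Whether the cells with few markers are of another cell type was not tested.

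**Figure D4:**
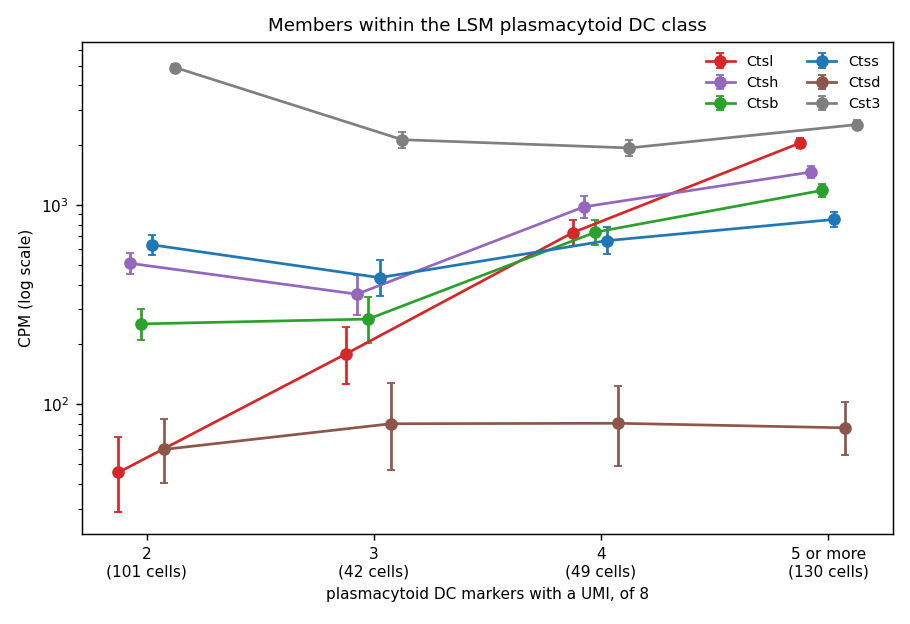
Level of 6 members in LSM plasmacytoid-like cells grouped by how many of the 8 class markers had a UMI, on a log axis, with exact 95% Poisson intervals and small sideways shifts so that points do not hide each other. Ctsl runs from 45.6 to 2051 CPM, and Ctsd stays between 59.5 and 80.5 CPM.

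Ctsb, Ctsh, Ctsz and Ctsc encode cathepsins that can trim peptides from an end, and Ctsc is also known for activating the serine proteases of leukocyte granules. Ctsb was highest in macrophage-like cells (1213 CPM) and nonclassical monocyte-like cells (1196), whose intervals overlapped, followed by plasmacytoid-like cells (682 CPM, 642 to 725). It was far lower in mature DC-like (106), cDC1-like (92.5) and cDC2-like cells (173 CPM). Ctsh was at a like level in mature DC-like (999), macrophage-like (937), plasmacytoid-like (924) and cDC2-like cells (807 CPM), where the first 3 overlapped, and the last overlapped macrophage-like cells but neither of the other two. The Ctsh UMI count of plasmacytoid-like cells, 1424, happened to equal that of Ctsl. Ctsz was highest in macrophage-like cells (1283 CPM), then mature DC-like cells (950.0), and lay between 518 and 735 CPM in plasmacytoid-, nonclassical monocyte-, cDC1- and cDC2-like cells. Ctsc stood at 1398 CPM in macrophage-like cells and between 36.7 and 146 CPM in every other LSM class. The macrophage-like level of Ctsc was 9.57-fold above that of the next class, cDC2-like cells.

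Ctsd and Ctse encode the aspartic proteases of the group. The order of Ctsd differed from that of the other members. It stood at 639 CPM (545 to 744) in basophil-like cells, 461 CPM (352 to 593) in macrophage-like cells and 372 CPM (293 to 467) in lymphocyte-like cells, each overlapping the next. The dendritic classes were lowest, with 15.3 CPM in mature DC-like cells, 4.84 CPM in cDC1-like cells and 19.0 CPM in cDC2-like cells. At 1500 UMIs, 61.4% of 101 basophil-like and 52.2% of 67 LSM lymphocyte-like cells had a Ctsd UMI, against 3.40% of 412 cDC2-like cells. Without thinning these shares were 70.7%, 57.5% and 10.6%. In the CD122+CD49a+ library lymphocyte-like cells led with 623 CPM (578 to 671), 3.14-fold above nonclassical monocyte-like cells. Ctse, a cathepsin known from gut epithelium and blood cells, was near the limit of detection, with 48 UMIs in all kept LSM cells. Its highest level was 31.0 CPM (13.4 to 61.1) in basophil-like cells, on 8 UMIs, and that interval overlapped the next class. In mature DC-, macrophage- and lymphocyte-like LSM cells it had no UMI.

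Lgmn encodes legumain, which cuts after asparagine and can start invariant chain processing. It was highest in macrophage-like cells at 899 CPM (743 to 1077), 5.70-fold above mature DC-like cells (158 CPM). Nonclassical monocyte-like cells had 127 CPM and overlapped mature DC-like cells. Plasmacytoid-like cells had 55.8 CPM and cDC2-like cells had 62.5 CPM, with overlapping intervals. Basophil-like cells had 1 Lgmn UMI and CD122+CD49a+ lymphocyte-like cells had none.

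Cst3 had the highest counts of the group and led in cDC1-like cells. It stood at 26315 CPM in LSM cDC1-like cells, 14049 in mature DC-like cells, 8273 in nonclassical monocyte-like cells, 5827 in cDC2-like cells, 3448 in macrophage-like cells and 3163 in plasmacytoid-like cells. The intervals of the last pair overlapped, and those of the others did not. In the CD122+CD49a+ library cDC1-like cells had 28187 CPM, nonclassical monocyte-like cells 4975 and cDC2-like cells 4856, and the last pair overlapped. LSM basophil-like, progenitor-like and plasma cell-like cells had 1638, 1698 and 1411 CPM. As a mean over cells these levels were 934, 1412 and 1437 CPM. LSM lymphocyte-like cells had 1960 CPM, but 1 cell of 14228 UMIs carried 356 of their 395 Cst3 UMIs. That cell was among those with the highest doublet scores, and without such cells the class stood at 208 CPM. CD122+CD49a+ lymphocyte-like cells had 326 CPM. At 1500 UMIs a Cst3 UMI was found in 22.4% of 67 LSM lymphocyte-like cells and in 27.2% of 246 CD122+CD49a+ lymphocyte-like cells. The part of free RNA in these shares, and in the shares of cells with Cst3 in other classes, was not tested.

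The make-up of the protease transcripts differed between classes. Among the UMIs of the 9 proteases, Ctsl made up 22.4% in plasmacytoid-like cells, 7.55% in progenitor-like cells, 2.07% in basophil-like cells and 0.437% in cDC2-like cells. Ctsb made up 28.9% in nonclassical monocyte-like cells, 16.5% in plasmacytoid-like cells and 5.50% in cDC2-like cells. Ctsd made up 68.2% in basophil-like cells, 50.3% in LSM lymphocyte-like cells and 70.4% in CD122+CD49a+ lymphocyte-like cells, against 0.605% in cDC2-like cells. The 9 proteases summed to 9124 CPM in macrophage-like cells, 4132 in nonclassical monocyte-like cells, 4123 in plasmacytoid-like cells, 3326 in mature DC-like cells and 1557 in cDC1-like cells, against 3136 CPM in cDC2-like cells. Progenitor-like cells had 670 CPM and basophil-like cells 937 CPM.

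Each class was then set against cDC2-like cells, with a gene called when its CPM ratio was at least 2 or at most 0.5 and both classes together held at least 20 UMIs. Of the 10 members, 9 could be compared in each LSM contrast, since Ctse had too few UMIs. In plasmacytoid-like over cDC2-like cells 3 members were higher (Ctsl, Ctsb and Ctsd) and 1 was lower (Ctsc), where 18.0% and 6.3% of 8146 genes were. Ctsb had a ratio of 3.95 (3.53 to 4.43) and Ctsd of 3.80 (2.68 to 5.46). Ctsc had a ratio of 0.493 (0.395 to 0.611), near the limit. Scaling by TMM factors instead of class totals moved all ratios of this contrast down by 0.38 on the log2 scale, and Ctss (0.586) and Cst3 (0.543) then also passed, for 3 higher and 3 lower, with 10.6% of all genes higher and 10.3% lower.

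In cDC1-like over cDC2-like cells 1 member was higher and 5 were lower, where 5.86% and 8.75% of 7779 genes were. Cst3 was 4.52-fold higher (4.43 to 4.60). The lower members were Ctss (0.414), Ctsc (0.475), Ctsh (0.431), Ctsd (0.255) and Lgmn (0.395), and Ctsb missed the limit at 0.535. In mature DC-like over cDC2-like cells Lgmn (2.52, 1.96 to 3.23) and Cst3 (2.41, 2.35 to 2.47) were higher, where 13.5% of 7191 genes were. The nonclassical monocyte list summed to 456 CPM in mature DC-like cells (6 of 7 detected, Cd300e at 0) and to 25.01 CPM in cDC2-like cells, and its part in these values was not tested. There 1 member, Ctsl, was lower at 0.407 on 4 UMIs against 34, with an interval of 0.105 to 1.14 that spans 1, where 21.2% of genes were.

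Nonclassical monocyte-like over cDC2-like cells had 3 members higher and 1 lower, where 19.7% and 9.39% of 7430 genes were. Ctsb was 6.92-fold (6.18 to 7.77) and Ctsd 6.24-fold (4.38 to 9.0) higher. Lgmn (2.04) and Ctsh (0.497) stood close to the limits, and neither passed among cells of 1000 or more genes and no more than 5% mitochondrial UMIs. Basophil-like over cDC2-like cells had 1 member higher, Ctsd at 33.7 (24.2 to 47.7), and 7 lower, where 16.0% and 23.0% of 6801 genes were. The lowest of these ratios was that of Ctss, 0.0328 (0.0157 to 0.0605). The neutrophil list summed to 236 CPM in basophil-like cells (3 of 9 detected, with Ly6g, Camp, Ltf, Ngp, Mmp8 and S100a8 at 0) and to 4.44 CPM in cDC2-like cells (2 of 9), and its part in these values was not tested. Progenitor-like over cDC2-like cells had 2 members higher, Ctsl at 3.69 (2.44 to 5.68) and Ctsd at 4.90 (3.51 to 6.96), and 7 lower, where 23.8% and 9.34% of 8329 genes were. The lowest was Ctsh at 0.0681 (0.0543 to 0.0845). The plasmacytoid list stood at 296 CPM in progenitor-like and 79.5 CPM in cDC2-like cells, and median mitochondrial shares were 2.23% in progenitor-like and 1.08% in cDC2-like cells. The part of either in the Ctsl and Ctsd values was not tested. These contrasts share the cDC2-like cells.

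Under TMM factors the members' split in nonclassical monocyte-like cells was 2 higher and 1 lower, where 12.8% and 14.3% of genes were. In basophil-like cells it stayed at 1 and 7, where 13.7% and 26.7% were, and in progenitor-like cells at 2 and 7, where 13.9% and 15.3% were. The median log2 ratio of all genes was 0.34 in the plasmacytoid, 0.25 in the monocyte, -0.14 in the basophil and 0.39 in the progenitor contrast before this scaling.

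Plasmacytoid-like over cDC1-like cells, the only contrast between LSM classes here without cDC2-like cells, had 5 members higher and 1 lower, where 19.8% and 5.5% of 7787 genes were. Beside Ctsl these were Ctsb (7.38, 6.28 to 8.72), Ctsh (2.65, 2.41 to 2.91), Ctsd (14.9, 7.56 to 33.4) and Lgmn (2.26, 1.56 to 3.30). Cst3 was lower at 0.120 (0.117 to 0.124). With TMM factors 4 members were higher and 1 lower, where 12.8% and 8.98% of genes were.

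The 44 other genes of the pathway fall in 4 lists, and the first, class II loading, was lower than in cDC2-like cells in most classes. All 10 of its genes had enough UMIs in each LSM contrast. In plasmacytoid-like cells 7 of 10 were lower, where 6.3% of all genes were, and none was higher, with a median log2 ratio of -2.22 beside 0.34 for all genes tested. H2-Eb1, a class II beta chain, stood at 940 CPM in plasmacytoid-like cells, against 9342 CPM in cDC2-like cells. In nonclassical monocyte-like and in basophil-like cells all 10 were lower, where 9.39% and 23.0% of genes were, with medians of -3.38 and -4.12. In progenitor-like cells 9 were lower, where 9.34% of genes were, and in mature DC-like cells 3 were (H2-DMa, H2-DMb1 and H2-Ob), where 21.2% were. In cDC1-like cells none of the 10 passed in either direction, with a median of -0.42. In the CD122+CD49a+ library all 10 were again lower in nonclassical monocyte-like than in cDC2-like cells, where 11.0% of all genes were. Of these, H2-DMb2 and Ciita each had 1 UMI in the monocyte-like cells, against 38 and 27 in cDC2-like cells. None of the 10 passed in CD122+CD49a+ cDC1-like cells, where 9.17% of all genes were higher and 15.0% lower.

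Among the 12 protease inhibitors, mature DC-like cells had 4 of 5 tested genes higher and none lower, where 13.5% and 21.2% of all genes were. Serpinb6b stood at 311 CPM in mature DC-like cells, against 1.61 CPM in cDC2-like cells, and Serpinb9, an inhibitor of granzyme B, at 232 against 2.42 CPM. Serpinb1a, an inhibitor of neutrophil serine proteases, was higher in mature DC-like (275 CPM), plasmacytoid-like, basophil-like (422) and progenitor-like cells (287) than in cDC2-like cells (15.3 CPM). Of the 6 other cathepsins, Ctsg, a granule serine protease, had 38 UMIs in basophil-like cells and none in cDC2-like cells. The ratio was 122 with 3 counts set in the cDC2 class as the floor, and the exact interval starts at 94.2. Of the 16 lysosome and reduction genes, 9 of 14 tested were lower in basophil-like cells, where 23.0% of all genes were, and 9 in progenitor-like cells, where 9.34% were, and none was higher in either. Lyz2, lysozyme, was 27.4-fold lower in plasmacytoid-like than in cDC2-like cells (55.8 against 1526 CPM), and Grn, progranulin, was 4.04-fold higher (322 against 79.9 CPM).

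Progenitor-like cells were split by 2 marker sets, one of the stem side and one of the lymphoid side. Ctsl stood at 66.9 CPM (42.4 to 100.4) in the 61 cells of the stem side and at 36.5 CPM (21.6 to 57.7) in the 88 of the lymphoid side, with overlapping intervals. Ctss stood at 131 CPM (95.5 to 175) on the stem side and 203 CPM (165 to 247) on the lymphoid side, also overlapping. The 76 progenitor-like cells with neither set had 3936 CPM of Cst3, against 1100 and 1064 CPM on the stem and lymphoid sides. In the whole progenitor class the cDC1, cDC2 and mature DC lists summed to 7.59, 15.2 and 26.6 CPM, and of the 8 plasmacytoid genes Klk1 was at 0.

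Classes with cells in both libraries were compared between the gates, although cells of 1 class were not alike in the libraries. The cDC1 list summed to 419 CPM in LSM and 1387 CPM in CD122+CD49a+ cDC1-like cells, of which 141 of 223 and 41 of 116 had exactly 2 markers. Median mitochondrial shares were 1.09% in LSM and 2.35% in CD122+CD49a+ cDC1-like cells, 1.08% and 2.25% in cDC2-like cells, and 1.20% and 2.54% in nonclassical monocyte-like cells. Median depth was 8005 UMIs in LSM and 3511.5 in CD122+CD49a+ cDC1-like cells, 5838 and 2191 in cDC2-like cells, and 2394 and 1348.5 in nonclassical monocyte-like cells. The part of these differences in the ratios was not tested. In cDC1-like cells 2 of 7 testable members were at least 2-fold higher in the LSM library and none lower, where 14.4% and 18.0% of 6358 genes were. Ctsz stood at 518 CPM in LSM cells, against 187 CPM in CD122+CD49a+ cells, a ratio of 2.78 (2.21 to 3.54). Lgmn had a ratio of 2.09 on 46 UMIs in LSM and 5 in CD122+CD49a+ cells, with an interval of 0.835 to 6.75. Ctss (1.95) and Ctsh (1.87) came near the limit, and Cst3 had a ratio of 0.934 (0.915 to 0.953). In cDC2-like cells none of 9 was higher and 1 was lower, where 10.5% and 25.7% of 6744 genes were. The lower member was Ctsd, at 19.0 CPM in LSM and 61.7 CPM in CD122+CD49a+ cells, a ratio of 0.308 (0.161 to 0.637). Lymphocyte markers, whose class led Ctsd in the CD122+CD49a+ library, summed to 1.61 CPM in LSM (2 of 9 detected) and to 25.7 CPM in CD122+CD49a+ cDC2-like cells (4 of 9, with Cd3d at 0), and their part in the result was not tested. Ctsl had 34 UMIs in LSM cDC2-like cells and none in the CD122+CD49a+ class, where 3 counts are worth 15.4 CPM, above the LSM level of 13.7 CPM, so no fold is given.

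In nonclassical monocyte-like cells 1 of 9 members was lower in the LSM library and none higher, where 20.8% and 14.2% of 4592 genes were. It was Ctsc, at 137 CPM in LSM and 320 CPM in CD122+CD49a+ cells, a ratio of 0.426 (0.266 to 0.713), and with TMM factors it missed the limit. Macrophage markers, whose class had the highest Ctsc, summed to 2.28 CPM in the LSM monocyte-like cells (2 of 8 detected) and to 30.5 CPM in the CD122+CD49a+ ones (2 of 8). The classical monocyte list summed to 26.2 CPM in LSM and 244 CPM in CD122+CD49a+ cells (3 of 5 detected in each, Vcan at 0 in both), and the lymphocyte list to 6.83 CPM (1 of 9) in LSM and 91.6 CPM (4 of 9) in CD122+CD49a+ cells. The part of these lists in the result was not tested. Class II genes also differed there, with 5 of 6 tested lower in LSM cells, such as H2-Aa at 695 CPM in LSM and 4151 CPM in CD122+CD49a+ cells. In lymphocyte-like cells 2 of 6 members were higher in the LSM library, Ctss (3.83, 2.21 to 6.56) and Cst3, where 6.37% of 6173 genes were, and none was lower, where 27.3% were. The Cst3 value rests on the single cell named above. With the cells of highest doublet score removed, the log2 ratio of Cst3 was -0.31, against 2.59 with them, and that of Ctss was 1.76, against 1.94. The cDC1 list summed to 29.8 CPM in LSM and 26.1 CPM in CD122+CD49a+ lymphocyte-like cells, the cDC2 list to 14.9 and 1.80 CPM and the nonclassical monocyte list to 4.96 and 12.6 CPM. All 8 macrophage markers were at 0 in both, and the part of the other lists in the result was not tested. Ctsd stood at 372 CPM in LSM and 623 CPM in CD122+CD49a+ lymphocyte-like cells, a ratio of 0.597 (0.464 to 0.759).

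Among the 16 lysosome and reduction genes, Ifi30, the thiol reductase that opens disulfide bonds of antigens, was higher in the LSM library in both conventional DC classes. It stood at 945 CPM in LSM and 361 CPM in CD122+CD49a+ cDC1-like cells, and at 2070.3 CPM in LSM and 956 CPM in CD122+CD49a+ cDC2-like cells. Psap, the precursor of lysosomal activator proteins, was lower, at 1443 CPM in LSM and 3428 CPM in CD122+CD49a+ cDC1-like cells and at 978 CPM in LSM and 3324 CPM in CD122+CD49a+ cDC2-like cells. In all, 2 of 14 tested were higher and 3 lower in cDC1-like cells, where 14.4% and 18.0% of all genes were, and 1 and 4 of 14 in cDC2-like cells, where 10.5% and 25.7% were, so these shares lay near those of all genes.

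The between-gate ratios depended on the scaling. TMM factors moved them up by 0.28 (cDC1), 0.61 (cDC2) and 0.62 (nonclassical monocyte) on the log2 scale. In cDC1-like cells 4 members were then higher and none lower, where 22.3% and 11.4% of genes were. In cDC2-like cells 2 were higher and 1 lower, where 28.1% and 10.5% of genes were, and in nonclassical monocyte-like cells 3 were higher and none lower, where 32.6% and 6.49% were. Before that scaling, over all kept cells 3 members were higher (Ctsl, Ctsz and Ctsh) and 2 lower (Ctsd and Ctse) in the LSM library, where 9.67% and 26.4% of 11411 genes were. Ctsl stood at 113 CPM in all LSM and 8.93 CPM in all CD122+CD49a+ cells, and Ctsd at 62.3 CPM in LSM and 343 CPM in CD122+CD49a+ cells, beside class shares that differ between the libraries. With TMM factors 5 were higher and 2 lower, where 20.2% and 14.0% of genes were.

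**Figure D5:**
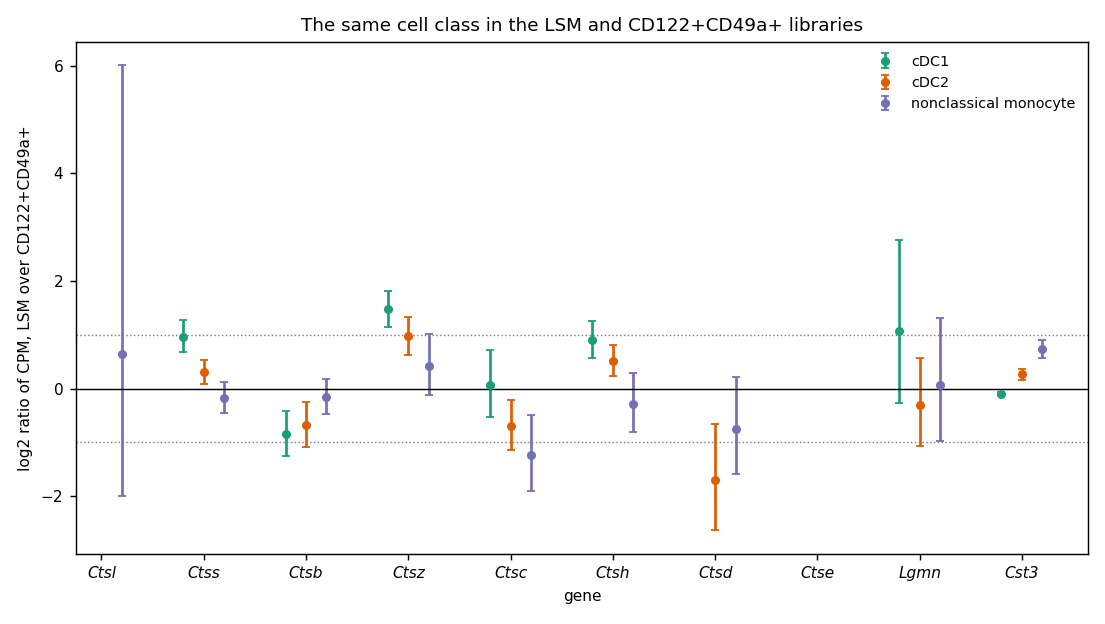
Log2 ratio of the CPM of each member in LSM over CD122+CD49a+ cells of the same class, scaled to class totals, with exact 95% conditional intervals; dotted lines mark 2-fold, and members with under 20 UMIs or with no UMI on one side are not drawn. Ctsz in cDC1-like cells lies above the upper line with its whole interval, and Ctsd in cDC2-like cells lies below the lower line with an interval that crosses it.

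The cDC1 pattern could be read in both libraries. In CD122+CD49a+ cDC1-like over cDC2-like cells 1 of 7 members, Cst3, was higher at 5.81 (5.43 to 6.21) and 5 were lower, where 9.17% and 15.0% of 3303 genes were. Ctss had a ratio of 0.262 (0.204 to 0.334), Ctsh of 0.330 (0.244 to 0.445) and Ctsc of 0.280 (0.168 to 0.457). Ctsz stood near the limit at 0.498 (0.357 to 0.694), and its LSM ratio of 0.705 did not pass. Lgmn had a ratio of 0.153 (0.0436 to 0.444) on 5 UMIs against 15. Ctsd, lower in the LSM contrast, had too few UMIs here. In CD122+CD49a+ nonclassical monocyte-like over cDC2-like cells 2 of 8 members were higher, Ctsb at 4.79 (3.37 to 6.85) and Ctsd at 3.22 (1.35 to 7.72), and none lower, where 17.7% and 11.0% of 1733 genes were. With TMM factors the cDC1 contrast had 1 higher and 4 lower, where 14.3% and 9.42% of genes were, and the monocyte contrast kept 2 higher and none lower, where 8.14% and 22.0% were.

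Genes with a like pattern were ranked by Pearson's r of log2(CPM + 10) over the 10 LSM classes. The 1208 genes ranked were outside the marker lists that set the classes, but check genes were not left out. For Ctsl the 5 highest were Ech1 (0.87), Nucb2 (0.85), Snx5 (0.85), Runx2 (0.82) and Tcf4 (0.82), each highest in plasmacytoid-like cells. Runx2 and Tcf4 were already among the check genes of the plasmacytoid class. For Ctss they were Irf5 (0.94), Clta (0.93), Hspa1a (0.93), Hspa1b (0.92) and Pld4 (0.91). Among the members, Ctsz and Ctsh had the highest r (0.97) and Ctss with Ctse the lowest (-0.73), while Ctsl with Ctss had 0.27. The Ctse value rests on a gene near the limit of detection, with 48 UMIs in all kept LSM cells. Ctsd with Cst3 was about as low (-0.72). These values are descriptions over 10 classes of 1 library that share its depth and free RNA.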

How the data were processed

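The deposited matrices hold whole-number UMI counts per gene and cell barcode, raw and not normalised, and per the file headers they come from software 3.0.1. The submitters' processing notes list Seurat 2.3.0, STAR and the build GRCm38 without saying what each was used for, and no source used here says how barcodes were chosen. Total UMIs were 16226070 in the LSM library (3133 barcodes) and 2632303 in the CD122+CD49a+ library (1655 barcodes), and 59 and 398 barcodes fell under 500 genes.

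The members and all lists were chosen with earlier results of these data known. All members are named. Of the pathway lists, up to 3 genes per direction and contrast were eligible, those with the largest ratio among genes past 2-fold with at least 100 CPM in the higher class, and other pathway genes were named after their values were seen, as were the motifs. Likeness used genes with at least 200 CPM in some class. A class needed 20 cells. Intervals are Poisson (CPM), Clopper-Pearson (shares) and conditional binomial (ratios). They treat UMIs as independent, cover counting error only, and say nothing of variation between mice. A count of 0 was set to 3 counts in the class, and the ratio then depends on that choice and is not the limit of the exact interval. The ratio procedure was run on simulated independent Poisson counts, the error its intervals assume. That run leaves out UMIs that cluster in single cells, so it says nothing of them. No doublets were removed for the main values; as an alternative the highest Scrublet scores (scanpy 1.11.5, 0.8% per 1000 barcodes) were, 76 LSM and 13 CD122+CD49a+ cells, since Scrublet's own threshold marked 0.423% and 0.239%. TMM factors came from edgeR 4.0.16. Start regions are RefSeq's and gene positions GENCODE M21's.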

Additional observations from a re-analysis of the deposited data

Results flagged for a closer look

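With scaling to class totals, Ctsz and Ctsc differed in direction between the libraries for nonclassical monocyte-like over cDC2-like cells. The Ctsz ratio was 0.809 (0.733 to 0.893) in the LSM library and 1.18 (0.740 to 1.84) in the CD122+CD49a+ library. The Ctsc ratio was 0.935 (0.754 to 1.15) in the LSM library and 1.36 (0.769 to 2.32) in the CD122+CD49a+ library. The difference between the libraries was not tested, and 3 of these 4 intervals span 1. The directions also depend on the scaling. TMM factors moved this contrast down by 0.31 (LSM) and 0.46 (CD122+CD49a+) on the log2 scale. The CD122+CD49a+ log2 ratios of Ctsz and Ctsc, 0.24 and 0.44 with class totals, then change sign. Both genes then have the same direction in the 2 libraries.

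Barcodes under 500 genes, which the comparisons leave out, also held the members' transcripts. The 10 members summed to 11469 CPM in 59 LSM barcodes and to 3813 CPM in 398 CD122+CD49a+ barcodes. Ctsl had 8 UMIs in the LSM ones and 2 in the CD122+CD49a+ ones, and Ctsd had 18 and 145.

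The 11 plasmacytoid-like cells of the CD122+CD49a+ library, under the minimum for a class, had Ctsl at 695 CPM (380 to 1166), with a UMI in 6 of 11 cells.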

How the results depend on the processing

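Of 59 member ratios past 2-fold, 390 of 391 alternative values kept the sign and 375 stayed past 2-fold. These counts include the setting without a minimum of UMIs, used within a library. It leaves such a ratio unchanged by construction, so its values could not have differed. The exception in sign was Cst3 in lymphocyte-like cells between the gates, with a log2 ratio of -0.31 with doublets removed, against 2.59, where 1 of the removed cells held 356 of 395 UMIs. The log2 ratio of Ctsl in plasmacytoid-like over cDC2-like cells lay between 5.70 and 7.64, the highest with at least 3 markers, against 6.07.

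With at least 3 markers 46.3% of LSM and 61.6% of CD122+CD49a+ cells were in a class. With more markers than the next list 72.2% of LSM cells were, and of cells with 1000 or more genes and no more than 5% mitochondrial UMIs 63.9% were. With at least 3 markers the Ctsl share was 65.3% in plasmacytoid-like, 2.98% in cDC1-like and 0.547% in cDC2-like LSM cells and 0% in CD122+CD49a+ nonclassical monocyte-like cells. It was 41.2% in plasmacytoid-like cells as a mean over cells, and 0% in the lymphocyte-like cells of both libraries with that gene minimum and mitochondrial limit together.

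The number of members past 2-fold changed as follows. Among these settings, shares of all genes were computed for TMM only and are given above. Under the others, a change in the members cannot be told apart from a change in all genes. With at least 3 markers it was 1 for CD122+CD49a+ nonclassical monocyte-like over cDC2-like cells, 1 for cDC1-like, 2 for cDC2-like and 2 for nonclassical monocyte-like cells between the gates. With both the gene minimum and the mitochondrial limit it was 2 for LSM nonclassical monocyte-like over cDC2-like cells and 2 for cDC2-like cells between the gates. With TMM it was 4, 3 and 3 for cDC1-, cDC2- and nonclassical monocyte-like cells between the gates. For lymphocyte-like cells it was 4 with more markers than the next list, 1 with doublets removed and 1 as a mean over cells. These causes were not tested. All 48 counts of pathway genes, an alternative chosen after seeing the data, stayed within 1.5 times. Classes under 20 cells, such as basophil-like cells under those limits, gave no value. No paired analysis was possible because each gate has 1 library and no result comes from a test. Depth limits Ctse and, in the shallower CD122+CD49a+ library, Ctsl.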

Other observations

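Ctla2a encodes a small protein that resembles the propeptide of cathepsin L-like proteases and can inhibit them. It was looked up after it appeared as the leading gene of progenitor-like cells, so its level is a description. It stood at 780 CPM (737 to 824) in LSM progenitor-like cells, 333 CPM in LSM lymphocyte-like cells, 80.4 CPM in plasmacytoid-like cells and 1.21 CPM in cDC2-like cells. CD122+CD49a+ lymphocyte-like cells had 326 CPM. Its close relative Ctla2b stood at 84.5 CPM in macrophage-like cells, where Ctla2a had no UMI, and at 73.2 CPM in CD122+CD49a+ cDC1-like cells, where Ctla2a had 1 UMI. Reads could be split between such related genes, so their values are uncertain.

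The 1011 LSM cells of no class had Ctss at 684 CPM, Ctsl at 36.7 CPM and Cst3 at 10694 CPM. The 262 CD122+CD49a+ cells of no class had Ctss at 887 CPM, Ctsl at 6.09 CPM and Cst3 at 8955 CPM.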
